A study of Mus musculus with 4 samples.

Results

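Killer cell lectin-like receptors are surface proteins of natural killer (NK) cells and of some T cells. The genes described here are all those whose symbol starts with Klra to Klrk followed by a digit. The rule used no measured value and found 26 of the 32285 genes of the deposited matrices. All 26 had at least 100 unique molecular identifiers (UMIs, each standing for 1 captured RNA molecule) over the cells kept, from 235 for Klrg2 to 232415 for Klra2.

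The series asks what loss of Trim25, a ubiquitin ligase, does to immune cells in a tumour. MC38 cells, a mouse colon carcinoma line, were injected under the skin of 8-week-old mice at 100000 cells per mouse, and cells carrying the leukocyte protein CD45 were sorted from the tumours for 3' single-cell RNA sequencing. The wild type (WT) group has 2 libraries and the Trim25 conditional knockout (cKO) group has 2. All 4 libraries came from MC38-bearing mice. The series title places the loss of Trim25 in T cells. The labels do not name the Cre driver, the deleted exons, the control alleles or the number of mice per library, and the spread behind each p-value is that between libraries, which may be technical. The labels name the colon as tissue and a colorectal tumour line as cell type, which describes the injected line. The sorted cells were mostly leukocytes. Ptprc, the gene of CD45, had a UMI in 97.9% of NK cells and in 54.0% of cells classed as fibroblast-like or tumour. Its level was far apart in these classes, at 2971 and 89.2 UMIs per 1000000, in the same order.

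The matrices held between 96751399 and 127449324 UMIs in 8533 to 12318 barcodes per library, and 39906 cells were kept, with a median of 7796 to 10017 UMIs per cell. Pairs of libraries shared 42 to 59 barcodes. Depth per cell ran with genotype in some classes. The median CD8 T cell had 8055 and 8309 UMIs in WT-1 and WT-2, and 10180.5 and 12372.5 in cKO-1 and cKO-2. The median pDC (plasmacytoid dendritic cell) had 11781 and 10569 in WT and 14913 and 13880 in cKO. NK cells overlapped, with 8440 and 11501 in WT and 11123 and 10017 in cKO. The part of depth in the genotype differences below was not tested. Trim25 itself, the targeted gene, was at 60.8 and 58.7 UMIs per 1000000 (CPM) in the CD8 T cells of WT-1 and WT-2, and at 44.4 and 43.0 CPM in those of cKO-1 and cKO-2. In NK cells it was at 47.1 and 47.7 CPM in the WT libraries and 40.6 and 46.2 CPM in the cKO libraries. The groups did not overlap in either class, though in NK cells the nearest values were 46.2 and 47.1 CPM. The remaining level in cKO CD8 T cells was well above 0. Reads at the 3' end may lie outside the deleted part, so these values do not check the genotype. Classes were named from marker genes, with the 26 receptor genes left out of both the clustering and the markers. They held 3457 NK cells, 1572 CD8 T cells, 331 gamma-delta T cells, 842 regulatory T (Treg) cells, 957 conventional CD4 T cells, 1548 B cells and 775 plasmacytoid dendritic cells (pDC), among others. A further 805 T cells formed a cluster led by Tcrg-C4, Cd7, Klra6, Klra1, Ly6c2 and Cd160, and are called the Ly6c2 Cd160 T cluster.

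These receptors set the threshold at which an NK cell kills. Inhibitory members carry motifs that recruit the phosphatases encoded by Ptpn6 and Ptpn11 when they bind class I major histocompatibility complex (MHC) molecules on a healthy cell, and activating members signal through the adaptors encoded by Tyrobp and Hcst. Most members lie in the NK gene complex. The Ly49 receptors, encoded by Klra genes, bind classical class I MHC molecules in mice, and each NK cell displays a varied subset of them. CD94, encoded by Klrd1, pairs with NKG2 chains to read the non-classical class I molecule encoded by H2-T23. NKG2D, encoded by Klrk1, binds stress-induced ligands, and NKR-P1 receptors bind C-type lectins of the Clec2 family.

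All 26 genes lie on chromosome 6, and 24 of them fall between 128609227 and 131247362 in GRCm38, from Klrb1a to Klra2; Klrg2 and Klrg1 lie outside that block. The 250 bases before the start of 4 Ly49 genes are printed because these related genes were found in different cells: Klra4 and Klra8 were found together in NK cells, Klra17 was highest in pDC and Klra2 in monocytes and macrophages. They were picked after those values were seen. Sequences are from RefSeq, build GRCm38.p6, minus strand, and run 5′ to 3′. Capitals mark a run of 15 bases that all 4 share.
Klra4 (chr6:130067272-130067521): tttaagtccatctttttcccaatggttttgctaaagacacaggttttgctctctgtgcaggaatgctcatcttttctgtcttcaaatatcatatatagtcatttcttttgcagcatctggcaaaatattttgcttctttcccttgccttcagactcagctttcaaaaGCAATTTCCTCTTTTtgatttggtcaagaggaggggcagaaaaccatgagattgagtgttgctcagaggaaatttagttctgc
Klra8 (chr6:130129899-130130148): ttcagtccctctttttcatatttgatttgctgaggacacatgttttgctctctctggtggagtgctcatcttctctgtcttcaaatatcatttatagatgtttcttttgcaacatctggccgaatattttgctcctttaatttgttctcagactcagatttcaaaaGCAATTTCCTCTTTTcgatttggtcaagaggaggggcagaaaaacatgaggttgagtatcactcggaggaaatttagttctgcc
Klra17 (chr6:129876673-129876922): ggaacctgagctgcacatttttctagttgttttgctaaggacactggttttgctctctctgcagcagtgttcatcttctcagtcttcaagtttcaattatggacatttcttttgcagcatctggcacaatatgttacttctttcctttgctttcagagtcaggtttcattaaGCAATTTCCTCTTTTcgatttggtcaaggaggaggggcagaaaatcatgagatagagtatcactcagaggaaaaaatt
Klra2 (chr6:131247363-131247612): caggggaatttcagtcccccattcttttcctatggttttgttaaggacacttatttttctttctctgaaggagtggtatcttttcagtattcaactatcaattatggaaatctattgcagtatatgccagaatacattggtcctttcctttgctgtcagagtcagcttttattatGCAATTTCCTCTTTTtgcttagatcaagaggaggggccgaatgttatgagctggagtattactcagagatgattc
In a global alignment of each pair, Klra4 and Klra8 were identical at 84.5% of aligned positions. Klra17 was identical to Klra4 at 79.4% and to Klra8 at 77.9%. Klra2 was identical to Klra17 at 75.2%, to Klra4 at 70.3% and to Klra8 at 69.2%. The 4 genes were picked for differing in cells, and the capitals mark what all 4 share. Their presence across cell types therefore follows from the choice and is no result. The same run of bases also stood in the 250 bases before Klra3, Klra6 and Klra9.

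Promoters of 23 members were searched on both strands for 5 short words. TGTGGT, the core word of RUNX factors, was in 8 of the 23, against 14.05% of 32851 mouse promoters of the same length. TATAAA was in 9 of the 23, against 12.37%. Some members have more than 1 start, and a member was counted if any of its promoters held the word. The percentages are per promoter, so the counts and percentages are unlike measures. GAGGAAGT, a PU.1 word, ACCGGAAG, an ETS word that can overlap it in part, and AGGTGTGA, a T-box word, were each in 0 of the 23, against 2.441%, 1.723% and 1.12% of all promoters. Among the 4 printed, TATAAA or its complement was in Klra8 alone. Matches are descriptions of letters and say nothing of binding.

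Klrd1 was the member with the most UMIs in NK cells. Its level there was 1557 CPM in WT-1, 1550 in WT-2, 1484 in cKO-1 and 1478 in cKO-2. In CD8 T cells it was 1018, 1033, 978 and 1233 CPM, in the same order, which all lists of 4 values below follow. A 3' UMI count depends on molecules and not on transcript length, so CPM values of different genes are set side by side here. Shared sequence limits this. Of the 60-base words in the last 500 transcript bases, 0% of those of Klrd1 and 38.7% of those of Klra9 occur in another gene. Orders of level between genes are therefore approximate. Klrk1 was at 855, 780, 782 and 875 CPM in NK cells and at 462, 496, 489 and 496 CPM in CD8 T cells. The lowest NK library was above the highest CD8 T library for both genes.

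Klrc1, which encodes the inhibitory chain NKG2A, was the member of its group that ran the other way. It was at 374, 299, 326 and 346 CPM in NK cells against 632, 596, 706 and 801 CPM in CD8 T cells. Klrc2, which encodes the activating chain NKG2C, was at 125 ± 6.55 CPM (SD, n = 4 libraries) in NK cells, 124 ± 14.2 in the Ly6c2 Cd160 T cluster and 55.6 ± 7.01 in CD8 T cells. NK cells and the Ly6c2 Cd160 T cluster did not differ in Klrc2 beyond their spread. Klrc3, encoding NKG2E, stayed at 9.01 ± 1.35 CPM in NK cells. The 3' ends of Klrc1, Klrc2 and Klrc3 share sequence: 37.5% of the 60-base words in the last 500 bases of Klrc1 transcripts occur in another gene, mostly Klrc2, so their split is uncertain.

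The activating Ly49 genes were highest in NK cells. Klra4 (Ly49D) was at 465, 340, 365 and 429 CPM in NK cells and at 3.0, 16.4, 19.3 and 8.82 CPM in CD8 T cells. Klra8, which encodes Ly49H, the receptor for a mouse cytomegalovirus protein, was at 435, 344, 414 and 403 CPM in NK cells and at 2.0 to 13 CPM in CD8 T cells. NK cells held 74.8% of all Klra4 UMIs and 76.5% of all Klra8 UMIs of the kept cells. Few of their 3' words are shared with another gene, 2.49% for Klra4 and 6.35% for Klra8.

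Among inhibitory Ly49 genes, Klra7 (Ly49G2) had the highest level in NK cells, 687, 699, 759 and 709 CPM. Klra9 (Ly49I) and Klra3 (Ly49C) followed at 218 ± 14.4 and 211 ± 22.2 CPM, which do not differ beyond their spread. Klra5 (Ly49E) was at 134 ± 18.5 and Klra1 (Ly49A) at 129 ± 29.5 CPM, again within their spread. Klra6 (Ly49F) and Klra10 (Ly49J) were low in NK cells, at 12.2 ± 2.26 and 10.1 ± 2.68 CPM. Shared 3' sequence makes the split uncertain for Klra9, with 38.7% of its words shared, Klra10 with 32.4%, Klra3 with 21.2% and Klra7 with 17.3%.

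Klra1 and Klra6 were highest outside NK cells. In the Ly6c2 Cd160 T cluster Klra1 was at 207, 292, 272 and 263 CPM, above each of the 4 NK values (144, 146, 85.0 and 142 CPM). Klra6 was at 64.6, 65.8, 89.0 and 90.5 CPM there, against 9.64 to 15.1 CPM in NK cells. Klra7 in that cluster was at 315 to 444 CPM, below every NK library. The leading genes of the cluster include Klra1 and Klra6, so their level there is a description of how the cluster reads and carries no test.

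Klra17 and Klra2 belonged to other lineages. Klra17, which encodes Ly49Q, a receptor known from plasmacytoid dendritic cells, was at 151, 227, 205 and 178 CPM in pDC, then at 35.7 ± 4.86 in conventional type 2 dendritic cells (cDC2) and 32.5 ± 14.5 in neutrophils, and at 1.67 ± 0.764 in NK cells. Klra2 (Ly49B), a receptor of myeloid cells, was at 1187 ± 90.6 CPM in non-classical monocytes, 1073 ± 113 in monocytes, 873 ± 64.0 in macrophages and 576 ± 147 in neutrophils. The 2 monocyte classes overlapped in Klra2. NK cells held 0.429% of Klra2 UMIs. Reads of Klra17 and its antisense partner Gm17631, and of Klrb1f and Gm44000, are told apart only if strand was used in counting, which the sources used here do not state.

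Of the NKR-P1 genes, Klrb1c, which encodes the NK cell antigen NKR-P1C, was at 508, 502, 484 and 448 CPM in NK cells, against 13.6 to 25.3 CPM in CD8 T cells. Klrb1b, the inhibitory receptor for the Clec2d product, was at 311 ± 24.1 CPM in NK cells, 90.9 ± 32.0 in the Ly6c2 Cd160 T cluster, 83.8 ± 4.90 in cDC2 and 71.1 ± 22.0 in conventional type 1 dendritic cells (cDC1). The last 3 did not differ beyond their spread. Klrb1f, whose product binds that of Clec2i, and Klrb1a were at 107 ± 7.65 and 92.9 ± 15 CPM in NK cells, and Klrb1 at 5.51 ± 0.816. Klrb1b and Klrb1c share 20.4% and 16.2% of their 3' words with other genes, mostly Gm44511.

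Klre1 encodes a chain that pairs with the products of Klri1 or Klri2. It was at 1220, 1172, 1118 and 1192 CPM in NK cells and at 406, 439, 446 and 504 CPM in CD8 T cells. Its partner genes differed in level in NK and CD8 T cells and overlapped in level in cDC2 and migratory dendritic cells. Klri2, the activating partner, was at 319 ± 13.9 CPM in NK cells, 57.8 ± 4.86 in CD8 T cells, 56.9 ± 9.30 in cDC2 and 43.7 ± 19.5 in migratory dendritic cells. Klri1, the inhibitory partner, was at 70.1 ± 18.3 CPM in migratory dendritic cells, 46.3 ± 4.04 in cDC2, 12.9 ± 2.60 in NK cells and 1.29 ± 0.738 in CD8 T cells.

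Klrg1, whose product binds cadherins, was highest in Treg cells, at 168, 122, 136 and 130 CPM. NK cells followed at 53.6, 98.1, 63.3 and 53.0 CPM, so the groups did not overlap, and CD8 T cells were at 7.33 ± 1.33 CPM. Klrg2 stayed at or under 1.05 CPM on average in every class. In dendritic cells Klrk1 was also high, at 446 ± 36.4 CPM in cDC2, 437 ± 60.2 in migratory dendritic cells and 355 ± 16.8 in cDC1, and Klrd1 was at 707 ± 104 CPM in cDC2.

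**Figure D1:**
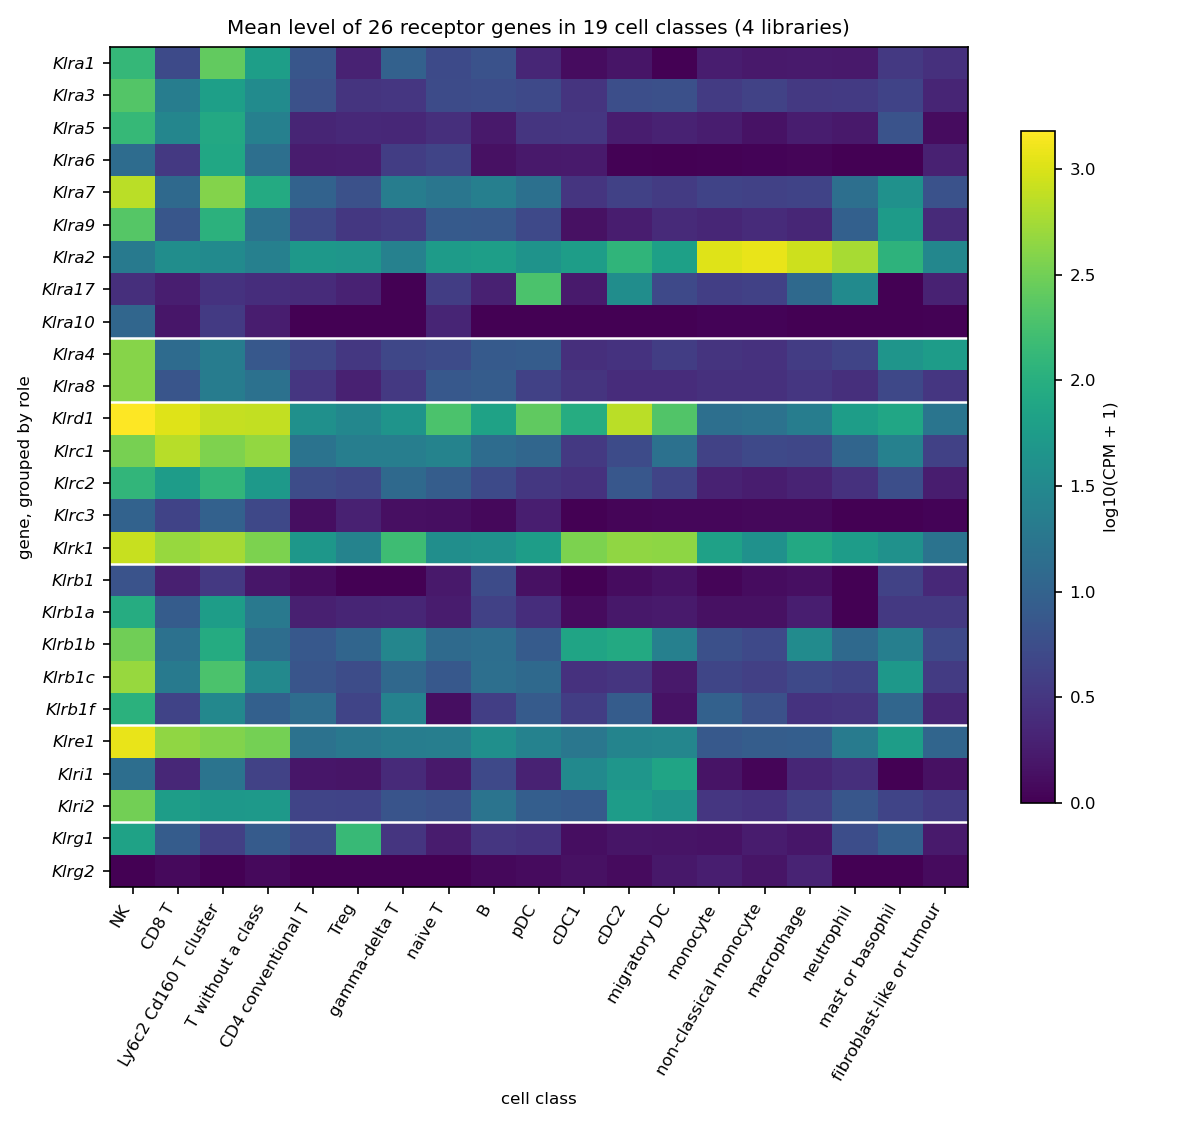
Mean level of the 26 genes (rows, grouped by role) in 19 cell classes (columns), as log10(CPM + 1) averaged over the 4 libraries; white lines part the roles. Most rows are brightest in NK cells, Klrc1 in CD8 T cells, Klra1 and Klra6 in the Ly6c2 Cd160 T cluster, Klrg1 in Treg cells, Klra17 in pDC and Klra2 in monocytes and macrophages.

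**Figure D2:**
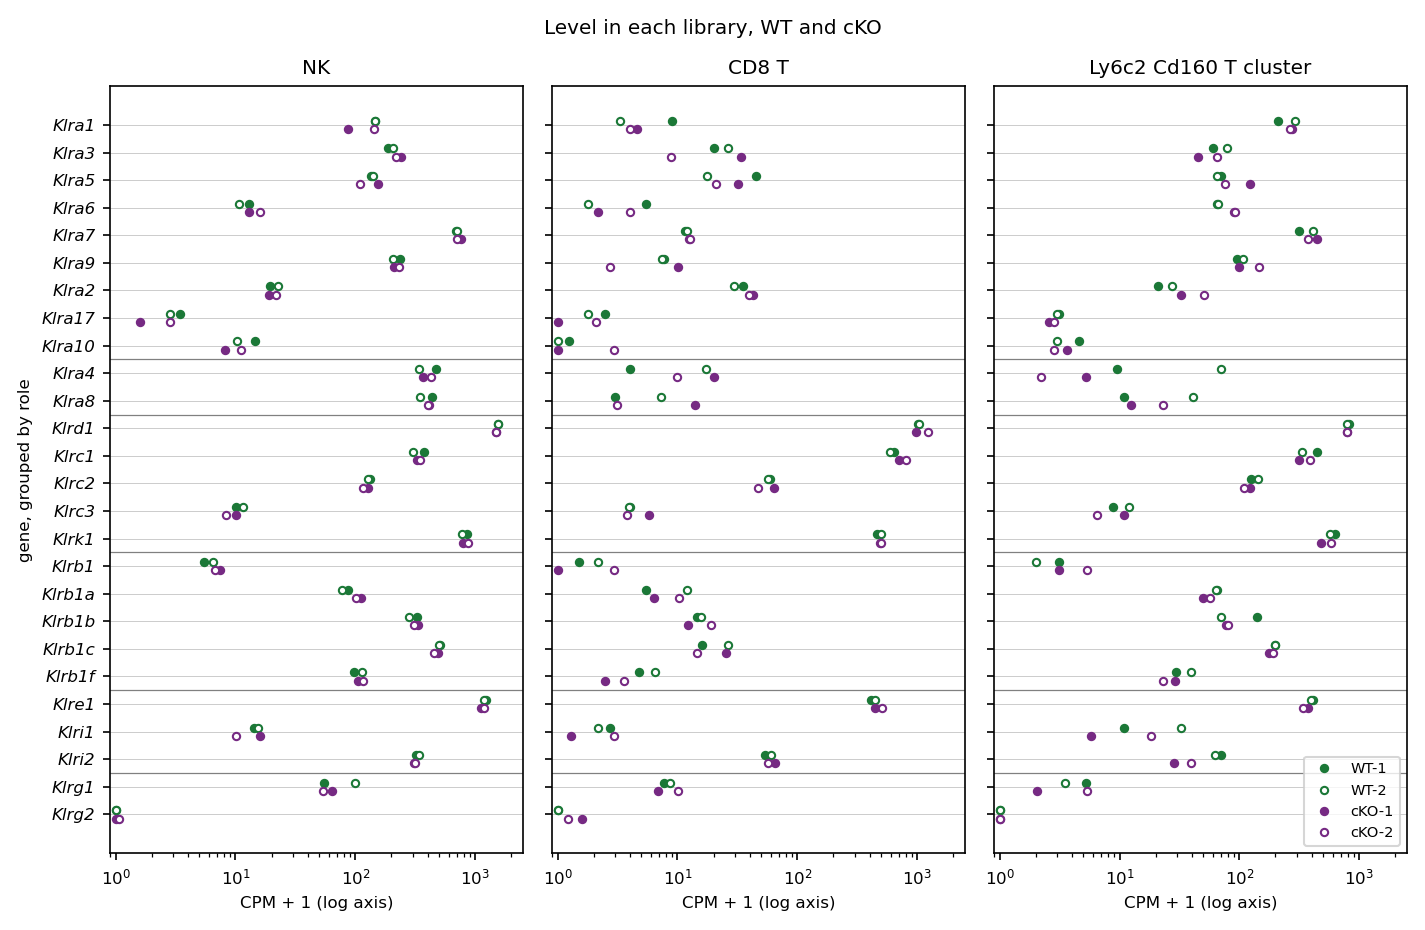
Level of each gene in each library (CPM + 1, log axis) in NK cells, CD8 T cells and the Ly6c2 Cd160 T cluster; green points are WT, purple points cKO, filled for library 1 and open for library 2. For most genes the 4 points lie close together, and the widest scatter among genes above 30 CPM in any library is Klra4 in the Ly6c2 Cd160 T cluster, from 1.23 to 68.9 CPM.

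NK cells and CD8 T cells of the same libraries were compared by edgeR's quasi-likelihood test on summed counts, with the library as a term and Benjamini-Hochberg adjustment over all genes. The test passed 24 of the 25 members that cleared the filter on low counts, 22 higher and 2 lower in NK cells. Among all 12148 genes tested 45.7% passed, 22.9% higher and 22.8% lower. The median log2 difference was 0.83 for the 5 CD94 and NKG2 genes, 2.54 for Klre1, Klri1 and Klri2, 3.42 for the 9 inhibitory Ly49 genes, 4.48 for the 5 NKR-P1 genes and 5.69 for the 2 activating Ly49 genes, beside 0.0005 over all genes. Classes were built from genes that move with the receptors, so these comparisons are between clusters and not between independently sorted cells.

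By gene, NK cells exceeded CD8 T cells most in Klra8 (log2 difference 6.23 ± 0.23 SE) and Klra7 (6.05 ± 0.07). Klra9, Klra4, Klra1 and Klra10 differed by 5.30, 5.14, 5.07 and 4.17, and Klra3, Klra6 and Klra5 by 3.42, 2.46 and 2.38. Among NKR-P1 genes the differences were 5.01 for Klrb1f, 4.72 for Klrb1c, 4.48 for Klrb1b, 3.61 for Klrb1a and 2.55 for Klrb1. Klri1, Klrg1 and Klri2 differed by 3.31, 3.24 and 2.54. The shared receptors were closer: Klrc3 1.52, Klre1 1.46, Klrc2 1.25, Klrk1 0.83 and Klrd1 0.59. In CD8 T cells Klra8, Klra7, Klra9 and Klra1 averaged 5.86, 11.3, 6.02 and 4.23 CPM. In B cells, used below as background of free RNA, they averaged 7.35, 22.4, 6.63 and 5.35 CPM. Klra3, Klra4, Klra5, Klra6 and Klra10 had higher means in CD8 T cells than in B cells. The part of free RNA in these differences and in the medians above was not tested.

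The 2 members lower in NK cells were Klrc1 (-0.95 ± 0.06, edgeR adjusted p = 1.05e-07) and Klra2 (-0.76 ± 0.12, adjusted p = 0.000154). Klra2 is a monocyte and macrophage gene here, and the summed level of 8 macrophage markers, none at 0, was 252 to 340 CPM in NK cells and 795 to 1154 CPM in CD8 T cells. The 7 monocyte markers summed to 1880 to 2044 CPM and 1675 to 2131 CPM. Their part in the Klra2 difference was not tested. Klra17 was the member that did not pass (1.07 ± 0.43, adjusted p = 0.0612), and Klrg2 was too low to be tested.

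Gamma-delta T cells, which carried Il17a, Il23r and Cd163l1 among their leading genes, had lower levels of most of these receptors than CD8 T cells. Il23r was required for this class, so other gamma-delta T cells may lie outside it. Trdc, a gamma-delta receptor gene, was at 1179 ± 353 CPM in the class and at 165 ± 57.4 CPM in the Ly6c2 Cd160 T cluster. Of 20 members tested, 2 were higher and 11 lower in gamma-delta T cells, where 28% of all 10337 genes passed, 14% higher and 13.9% lower. Klrc1 was at 9.03, 19.7, 37.1 and 21.1 CPM in gamma-delta T cells (log2 difference -4.95 ± 0.17), Klrd1 at 4.52 to 84.5 CPM (-4.62 ± 0.19) and Klre1 at 4.52 to 52.0 CPM (-4.39 ± 0.25). Klrk1 was kept at 145, 124, 180 and 165 CPM and differed less (-1.71 ± 0.12). Klrd1 and Klre1 averaged 43.7 and 21.2 CPM in gamma-delta T cells, below B cells (66.5 and 37.9). Klrc1 and Klrk1, at 21.7 and 153 CPM, were above B cells (12.4 and 40.0). The part of free RNA in the gamma-delta T cell differences was not tested. The other 7 lower members were Klra5 (-3.99), Klri2 (-3.12), Klra3 (-2.88), Klrb1a (-2.83), Klrg1 (-2.19), Klra4 (-2.17) and Klrc2 (-2.16).

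The members higher in gamma-delta T cells were both NKR-P1 genes. Klrb1f was at 22.6, 39.4, 22.3 and 14.1 CPM against 1.48 to 5.46 CPM in CD8 T cells (2.82 ± 0.43). Klrb1b was at 22.3 to 36.6 CPM (0.90 ± 0.28, adjusted p = 0.0159). Only 331 gamma-delta T cells entered, 37 of them from WT-1, and the calls of Klrb1b, Klra4, Klrb1a and Klrg1 were lost without cKO-2 and in DESeq2. Without cKO-1 those of Klrb1b and Klra4 were lost, without WT-2 that of Klrg1.

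Genes of the signalling chain moved both ways between NK and CD8 T cells. Of 20 adaptor and signalling genes 9 were higher and 8 lower in NK cells, where 22.9% of all 12148 genes were higher and 22.8% lower. Tyrobp, the adaptor of activating Ly49 receptors, was at 1118 ± 48.7 CPM against 138 ± 25.6 (log2 difference 3.10), while Hcst, the adaptor of NKG2D, was lower (-0.77). Phospholipase C genes split, with Plcg2 higher (1.87) and Plcg1 lower (-4.71), as did the kinase genes Syk (1.69) and Zap70 (-0.60). Lat, the scaffold of T cell receptor signalling, was lower (-3.01), and Sh2d1b2, an adaptor of NK cells, higher (6.37).

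Ligand genes were read in the same cells. Beside the same 22.9% and 22.8% of all genes, of 6 genes of class I MHC molecules 0 were higher and 5 lower in NK cells, with B2m at -0.12, H2-K1 at -0.17 and H2-Q7 at -0.56; H2-D1 did not pass (-0.05). Of 3 NKR-P1 ligand genes tested Clec2i (1.00) and Clec2d (0.33) were higher. The NKG2D ligand genes Ulbp1 (0.30) and Raet1e (-1.37) went opposite ways, and the KLRG1 ligand gene Cdh1 was higher (1.31). Of 15 other NK receptor genes 7 were higher and 6 lower, again beside 22.9% and 22.8% of all genes, with Ncr1, the NKp46 gene, at 5.86 and Havcr2 at -3.16. The medians of these lists lay between -0.54 and 1.31.

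In gamma-delta T cells against CD8 T cells, 2 of 19 adaptor and signalling genes were higher (Lat 1.00, Inpp5d 0.81) and 8 lower, Tyrobp among them (-0.39), where 14% of all 10337 genes were higher and 13.9% lower. Of 15 other NK receptor genes, Cd226 was higher (0.69) and 8 were lower.

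NK cells themselves differed in these genes. Clustered without the receptor genes, their largest clusters were a Gzma-high one of 1179 cells and a Gzmc-high one of 1211 cells. Both are described without a test, since clusters were built from these cells. Smaller NK clusters are not described here. In 1 of them, of 197 cells, Gzmc was at 23741 ± 2600 CPM, against 11557 ± 1050 CPM in the Gzmc-high cluster. Klra4 was at 807, 763, 749 and 858 CPM in the Gzma-high cluster and 402, 315, 330 and 343 CPM in the Gzmc-high cluster. Klra8 was at 739 ± 27.4 against 369 ± 29.9 CPM, Klrk1 at 1302 ± 76.1 against 757 ± 27.2, Klrb1c at 831 ± 67.6 against 433 ± 45.9, and Klrc2 at 282 ± 46.4 against 90.5 ± 4.37.

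Klra5 and Klrg1 ran the other way. Klra5 was at 28.7, 17.6, 15.7 and 8.40 CPM in the Gzma-high cluster and 173, 175, 166 and 146 CPM in the Gzmc-high cluster. Klrg1 was at 29.7 ± 5.65 against 65.7 ± 22.4 CPM, and Klrd1 was close in both, at 1482 ± 32.1 and 1609 ± 87.2. Depth differed as well: the median cell had 6217 UMIs in the Gzma-high cluster and 20299 in the Gzmc-high cluster. The part of depth in these differences was not tested. Type 1 innate lymphoid cells were not given a class of their own, so the NK class may hold some. Itga1, 1 of their markers, was at 86.7 ± 6.26 CPM in the Gzma-high and 338 ± 46.5 CPM in the Gzmc-high cluster. Eomes, an NK marker, was at 427 ± 27.2 and 327 ± 11.8 CPM, in the same order. The part of such cells in these differences was not tested.

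To compare cells, each was thinned to 2000 UMIs and shallower cells were left out. In NK cells a Klrd1 UMI was found in 86.5%, 88.5%, 86.7% and 89.2% of cells of the 4 libraries, and a Klre1 UMI in 86.0 ± 1.79%. Klrk1 was found in 76.8 ± 2.11% and Klrb1c in 62.5 ± 1.79%. Single Ly49 genes were found in fewer cells: Klra7 in 49.9 ± 2.05%, Klra8 in 34.4 ± 2.24%, Klra4 in 29.7 ± 2.56%, Klra9 in 26.1 ± 1.07%, Klra1 in 11.9 ± 1.68% and Klra6 in 1.95 ± 0.525%. Without thinning the shares were 94.8% for Klrd1, 60.8% for Klra7 and 37.3% for Klra4.

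B cells, which should lack these receptors, give the background of free RNA: 6.52 ± 1.89% had a Klrd1 UMI and 2.38 ± 0.759% a Klra7 UMI at the same depth. CD8 T cells had Klrd1 in 66.8 ± 7.70%, Klrc1 in 58.6 ± 8.12% and Klrk1 in 48.3 ± 4.05%, far above B cells. Their Klra7 share, 1.16 ± 0.425%, was below that of B cells and is not told apart from background here. The median cell before thinning had 10249 UMIs for NK, 9454 for CD8 T and 3223 for B cells. Thinning thus dropped a larger part of NK and CD8 T cells than of B cells. B cells are therefore not an exact background for them.

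Any of 9 Ly49 genes (all but the myeloid and pDC genes Klra2 and Klra17) had a UMI in 84.0%, 85.4%, 85.3% and 87.0% of NK cells of the 4 libraries. Of NK cells 14.6 ± 1.25% showed 0 of these genes, 26.1 ± 0.499% showed 1, 28.4 ± 1.86% showed 2 and 30.9 ± 1.65% showed 3 or more. In the Ly6c2 Cd160 T cluster the share with any was 52.0 ± 2.48%. CD8 T cells were at 8.93%, 7.54%, 8.76% and 5.56% and B cells at 4.88%, 6.53%, 7.51% and 5.64%, so the ranges overlapped while 3 of 4 CD8 T libraries lay above every B library. Without thinning the means were 19.3% and 10.7%. Klra5 was at 28.0 ± 12.5 CPM in CD8 T cells and 0.666 ± 0.565 CPM in B cells. Gamma-delta T cells were at 2.64 ± 2.64%. A gene missed at this depth counts as absent, and the share of NK cells with 0 of the genes was 10.6% at 3000 UMIs and 8.96% without thinning.

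**Figure D3:**
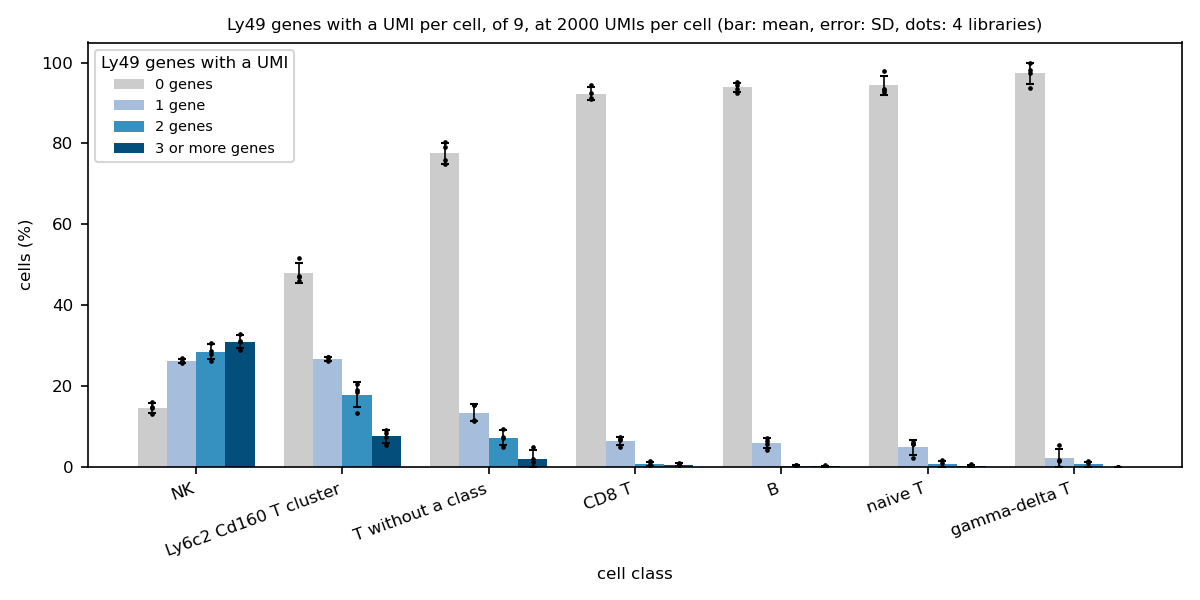
Share of cells (%) with a UMI of 0, 1, 2 or at least 3 of 9 Ly49 genes in 7 cell classes, each cell thinned to 2000 UMIs; bars are means of 4 libraries, error bars SD and dots the libraries. NK cells are spread over all 4 bars, the Ly6c2 Cd160 T cluster has 48.0% of cells at 0, and CD8 T, B, naive T and gamma-delta T cells stand above 90% at 0.

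Pairs of receptor genes in the same thinned NK cell were described by the share of cells with both over the product of the single shares, without a test. Of 47 pairs, 13 were above the product in all 4 libraries and 14 below it in all 4. Klra4 and Klra8 were together in 15.3% of NK cells, where the product was 10.2%, a ratio of 1.49 with a range of 1.37 to 1.59 over libraries. Of cells with Klra4 51.3% had Klra8, and of cells without it 27.2%. Klra4 with Klra10 gave 1.85 and Klra6 with Klra1 2.02. Klra10 and Klra6 were low in NK cells, at 10.1 ± 2.68 and 12.2 ± 2.26 CPM, so both of these ratios rest on few cells.

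Klrc1 was found apart from the activating pair. With Klra4 the ratio was 0.61 (0.55 to 0.68 over libraries) and with Klra8 0.68 (0.61 to 0.77). Klra5 with Klra4 gave 0.44 and with Klra8 0.60 over all NK cells. Klra5 was higher in the Gzmc-high cluster, and Klra4 and Klra8 were higher in the Gzma-high cluster. The part of this split in the Klra5 ratios was not tested. Klrc1 with its partner Klrd1 gave 1.01. Within the Gzmc-high and the Gzma-high cluster alone, ratios of Klra4 with Klra8 stayed above 1 (1.39 to 1.51 and 1.18 to 1.47). Those of Klrc1 with Klra4 stayed below 1 (0.45 to 0.70 and 0.56 to 0.63, in the same order). Pairs share cells and depth, and some pairs were looked at before all 47 were computed.

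**Figure D4:**
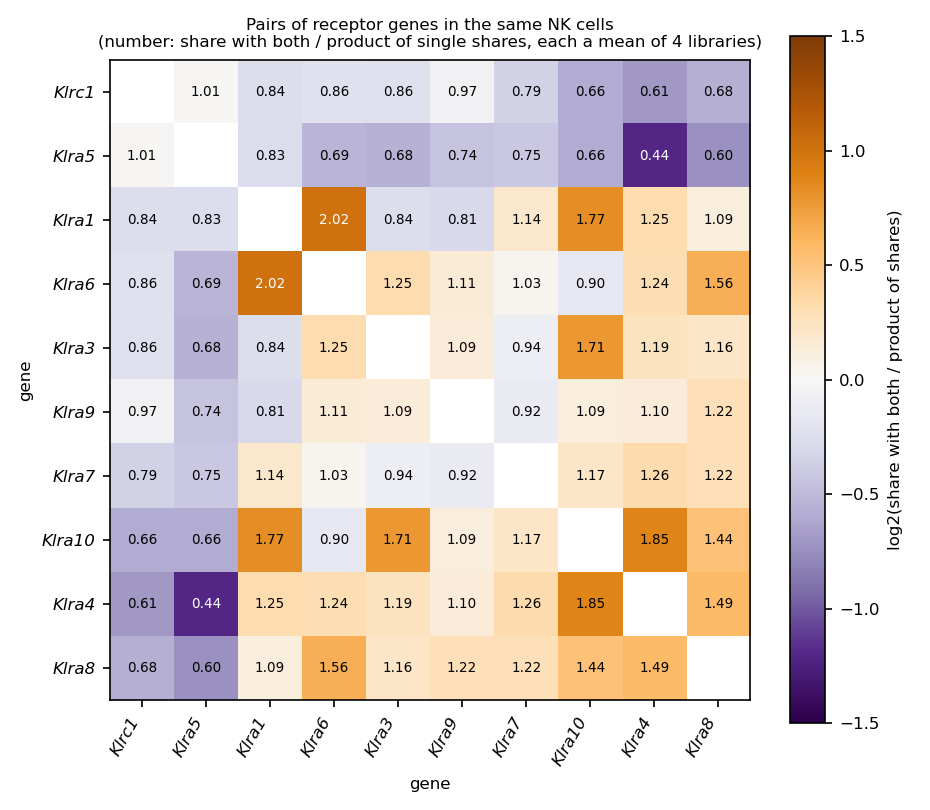
Ratio of the share of NK cells with both genes to the product of their single shares for 10 receptor genes, each a mean of 4 libraries at 2000 UMIs per cell; color is log2 of the ratio, the number in a cell is the ratio. The corner with Klra10, Klra4 and Klra8 lies above 1, and the rows of Klrc1 and Klra5 lie below 1 except with each other (1.01).

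Genotype was compared within each class, cKO against WT, with 2 libraries a side. Over 19 classes there were 237 tests of members and 1 passed. In NK cells 0 of 25 members passed, as did 0% of all 12223 genes, and 3 members had an unadjusted p under 0.05. Over all genes 690 were under that level, and DESeq2 passed 5 genes and 0 members. Klrb1a was at 85.1 and 76.3 CPM in WT and 110 and 100 CPM in cKO NK cells (log2 difference 0.41 ± 0.10, edgeR adjusted p = 0.565). Klra3 (0.25 ± 0.11, adjusted p = 0.883) and Klra6 (0.39 ± 0.17, adjusted p = 0.883) were the others.

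The 8 members with most UMIs in NK cells lay within 0.11 of no change: Klrd1 -0.04 ± 0.10, Klre1 -0.02 ± 0.10, Klrk1 0.05 ± 0.11, Klra7 0.11 ± 0.10, Klrb1c -0.08 ± 0.10, Klra4 0.02 ± 0.14, Klra8 0.10 ± 0.12 and Klrc1 0.03 ± 0.12. Leaving out 1 library at a time let other members pass: without WT-1 Klrg1 (-0.74) and Klrb1a (0.48), and without cKO-2 Klra1 (-0.73). With all 4 libraries Klrg1 was at -0.38 ± 0.23 and Klra1 at -0.32 ± 0.18.

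In CD8 T cells 0 of 21 members passed, as did 0% of 10804 genes, while 737 genes and 3 members had an unadjusted p under 0.05; DESeq2 passed 9 genes and 0 members. Klrc1 was at 632 and 596 CPM in WT and 706 and 801 CPM in cKO, without overlap (0.31 ± 0.12, adjusted p = 0.619). Klra2 (0.36 ± 0.16) and Klrb1f (-1.13 ± 0.48) were the others, with adjusted p of 0.72 and 0.693. Of the rest, Klrd1 differed by 0.12 ± 0.13, Klre1 by 0.18 ± 0.13, Klrk1 by 0.05 ± 0.12, Klri2 by 0.10 ± 0.14, Klrc2 by -0.06 ± 0.16 and Klra5 by -0.23 ± 0.35. Without WT-2, Klra5 (-0.79) and Klra4 (2.20) passed, where the comparison with all 4 libraries gave 0.44 ± 0.52 for Klra4.

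**Figure D5:**
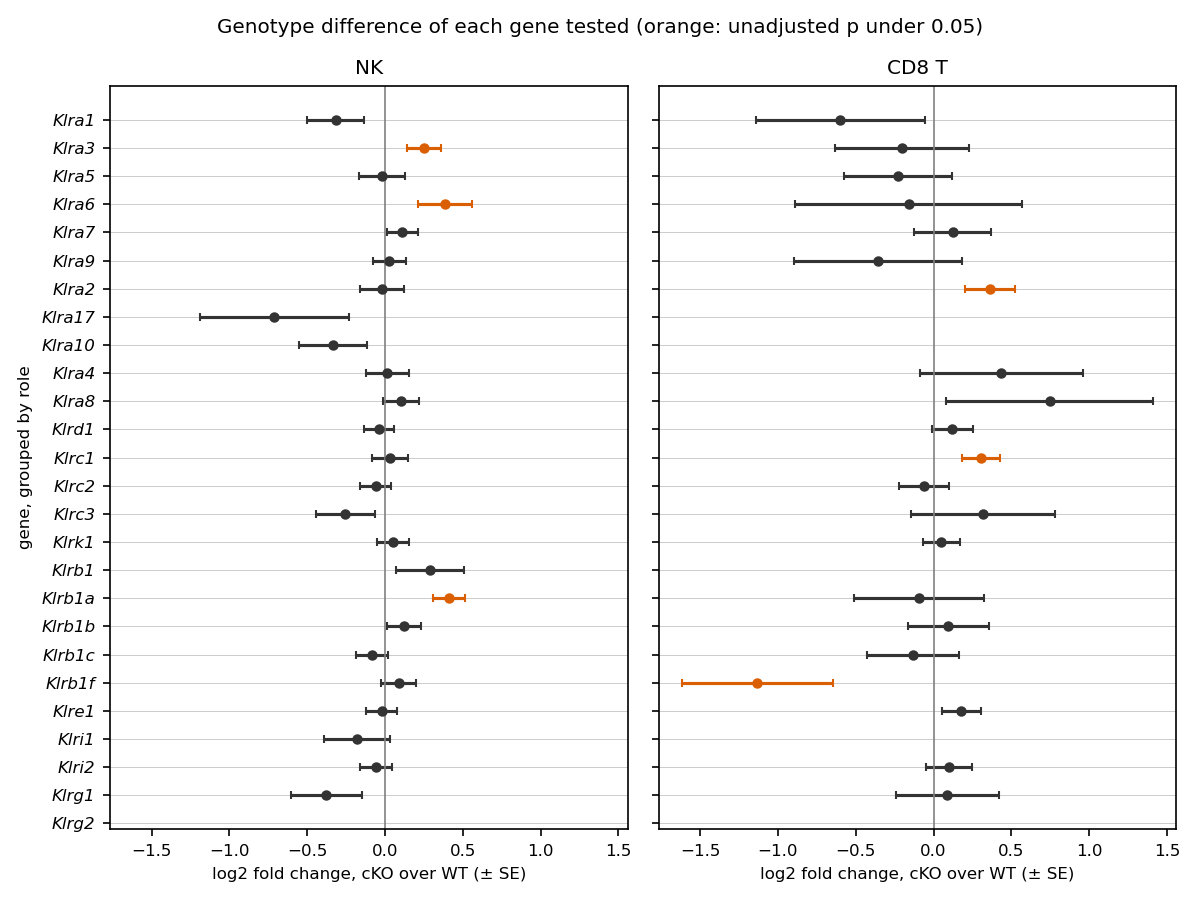
Log2 fold change (cKO over WT, ± SE) of each gene tested in NK and CD8 T cells, genes grouped by role; orange marks an unadjusted p under 0.05. NK values of the abundant genes sit at 0 within 0.11, and those of the lowest genes spread more widely.

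The difference of genotype effects between NK and CD8 T cells passed for 0 of 25 members, where 0.0905% of 12148 genes passed. Unadjusted, 4 members were under 0.05: Klrb1f (1.23 ± 0.37), Klrc1 (-0.26 ± 0.10), Klre1 (-0.19 ± 0.09) and Klra10 (-3.45 ± 1.33), and DESeq2 passed 0 members. Without WT-2 Klra4 (-2.34) passed, without cKO-2 Klra8 (-1.43), and without cKO-1 Klrd1 (-0.33), Klra9 (2.01), Klra3 (1.69) and Klra10 (-4.11).

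In the Ly6c2 Cd160 T cluster 0 of 21 members passed, beside 0% of 9210 genes; 6 members were under 0.05 unadjusted, and DESeq2 passed 0. Klra4 was at 8.52 and 68.9 CPM in WT and 4.21 and 1.23 CPM in cKO (-3.84 ± 0.74, adjusted p = 0.254). The groups did not overlap, but WT-2 stood far above WT-1, and without WT-2 the difference was -1.55 and did not pass. It passed without WT-1 (-4.61), without cKO-1 (-5.01) and without cKO-2 (-3.27). Klri2 was at 69.6 and 61.3 CPM in WT and 27.4 and 38.2 CPM in cKO (-1.01 ± 0.21, adjusted p = 0.254), again without overlap; it passed with WT-1 (-0.95), WT-2 (-1.07) or cKO-2 (-1.24) left out. Treg cells had 0 of 7 members passing, beside 0.0966% of genes. All 7 log2 differences were below 0, where the median over all genes was 0.006. Klrg1 was at -0.10 ± 0.17 and Klrd1 at -1.13 ± 0.36, or -2.03 without cKO-2. In Treg cells Klrd1, Klrk1 and Klre1 averaged 29.0, 25.1 and 17.9 CPM, below B cells (66.5, 40.0 and 37.9). Klrc1 and Klrg1, at 21.7 and 139 CPM, were above B cells (12.4 and 2.20). The part of free RNA in the Treg differences was not tested.

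In T cells without a class, a cluster led by cell cycle genes, 0 of 22 members passed, beside 0.228% of genes. Klrb1a there was at 8.88 and 11.8 CPM in WT and 20.8 and 31.1 CPM in cKO (1.34 ± 0.31, edgeR adjusted p = 0.141), without overlap; it passed with WT-2 (1.59) or cKO-1 (1.60) left out. Conventional CD4 T cells had 0 of 8 members passing beside 0.654% of genes, naive T cells 0 of 6 beside 0.0146%, and monocytes 0 of 22 beside 0.00729%. Klra2, the main member of monocytes, was at 1092 and 1203 CPM in WT monocytes and 928 and 1068 CPM in cKO monocytes.

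The member that passed was Klra2 in pDC, 1 of 13 tested, where 0.645% of 9611 genes passed, 0.0624% higher and 0.583% lower. It was at 77.5 and 62.0 CPM in WT (153 and 198 UMIs) and 10.2 and 20.6 CPM in cKO (13 and 56 UMIs), a log2 difference of -2.03 ± 0.28 (edgeR adjusted p = 0.00478). The groups did not overlap, and each cKO library was below each WT library. Over the 4 libraries Klra2 averaged 42.6 ± 32.3 CPM in pDC. It averaged 59.5 ± 28.7 CPM in B cells, the background class, and 1187 ± 90.6 CPM in non-classical monocytes. Its mean CPM in pDC was thus not above that in B cells. The median cell had 12172 UMIs for pDC and 3223 for B cells. A like CPM in the classes therefore does not place pDC at background. The part of free RNA in the difference was not tested. Of other NK receptor genes in pDC, Fcgr3 (-1.36, adjusted p = 0.0454) and Lilrb4a (-1.04, adjusted p = 0.0311) fell too; both are also transcribed in myeloid cells. Klra17, the pDC member, was at 151 and 227 CPM in WT and 205 and 178 CPM in cKO (0.03 ± 0.19).

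Macrophage markers were lower in cKO pDC as well. The sum of 8 macrophage markers, none at 0, was 349 and 862 CPM in WT pDC and 210 and 181 CPM in cKO pDC. The 7 monocyte markers summed to 8632, 8493, 8374 and 8500 CPM, and the 7 non-classical monocyte markers to 400, 327, 293 and 294 CPM. Their part in the pDC difference was not tested. The call was lost without cKO-2 (-2.73, adjusted p = 0.0902, with 0 genes passing) and with predicted doublets kept (-1.32, adjusted p = 0.738). In B cells 0 of 9 members passed beside 0.0454% of genes; Klra2 there was at 94.7 and 71.2 CPM in WT and 35.2 and 36.9 CPM in cKO (-1.18 ± 0.20, adjusted p = 0.0854). It passed when WT-2 (-1.35) or cKO-2 (-1.21) was left out.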

How the data were processed

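Single-cell 3' RNA sequencing gave 4 libraries. The authors deposited raw UMI counts per gene and barcode, made with Cell Ranger and STAR on build mm10, per the submitters' processing notes; no source used here gives versions or the annotation. Nothing says that libraries came from separate mice.

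Barcodes under 300 genes, under 500 UMIs or over 15% mitochondrial UMIs were dropped. Doublets were scored with Scrublet, whose automatic threshold called 0 cells, so cells scoring over 0.2 were removed. Cells were clustered in scanpy 1.11.5 (Leiden) without the receptor genes and named from marker lists; naming thresholds, doublet limits and the Ly6c2 Cd160 T cluster were set after the data were seen. For each class, the UMI counts of a library were added up and tested with edgeR 4.0.16 (quasi-likelihood, TMM, filterByExpr, Benjamini-Hochberg at 0.05), with DESeq2 1.42.0 as an alternative. Each SE is the log2 difference over the square root of its F. With 2 libraries against 2, an exact permutation test cannot go below p = 0.333. The test scripts were tested on simulated data. Positions are from GENCODE (GRCm38) and promoters from RefSeq. Alternatives covered scaling, filter, clustering, doublets, depth, replicate block and each library left out. Intervals and SDs of shares cover these libraries only.

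The members and lists were chosen with earlier results of these data known. The text names members with at least 100 UMIs, gives values for those past the threshold and for the 8 highest in NK and in CD8 T cells, and names list genes that passed or rank highest. The printed promoters, the gene pairs and the NK clusters were chosen after values were seen. Of the list genes, Raet1a, Raet1b, Raet1c, H60a, Clec2j and Lilrb4b were not analysed here.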

Additional observations from a re-analysis of the deposited data

How the results depend on the processing

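All 264 alternative values for NK against CD8 T cells kept their direction and side of the threshold, as did 128 of 141 for gamma-delta against CD8 T cells; the other 13 kept direction and no longer passed. Genotype comparisons were less stable. Leaving out 1 library gave 0 to 2 members passing in NK and in CD8 T cells, 1 to 4 in the Ly6c2 Cd160 T cluster and in T cells without a class, 0 to 3 in pDC and cDC1, 0 to 4 for the difference between NK and CD8 T cells, and 0 to 1 in B, CD4, Treg, macrophage and mast cell or basophil classes. A lone library is then assumed to vary like the others. Without the count filter 4 members passed in B cells, 2 each in the Ly6c2 Cd160 T cluster, mast cells or basophils, pDC and T cells without a class, and 1 each in Treg cells and non-classical monocytes. With doublets kept 2 passed in B cells and 0 in pDC, and with the receptors among the clustering genes 1 in B cells. All genes passing rose from 0 to 139 in NK and 161 in CD8 T cells without the filter, and to 451 and 183 without WT-1; in pDC they went from 62 to 233 without the filter and to 0 without cKO-2. DESeq2 passed 3 genes, not 11, for the difference between NK and CD8 T cells. The cause was not tested.

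The replicate block passed 1 member in the Ly6c2 Cd160 T cluster (Klra4, adjusted p = 0.00408 in edgeR) and 1 in T cells without a class (Klrb1a, adjusted p = 0.0386 in edgeR), and 196 genes in CD8 T cells. Correlations of same-numbered libraries were 0.064 in NK, 0.123 in CD8 T cells, -0.137 in macrophages and -0.109 in monocytes, so the numbers were not taken as pairs.

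Small genotype differences changed sign. With 1 library left out, NK values ran from -0.17 to 0.24 for Klra4, -0.03 to 0.26 for Klra8, -0.1 to 0.19 for Klrc1, -0.06 to 0.02 for Klre1 and -0.02 to 0.13 for Klrk1. CD8 T values ran from -0.79 to 0.6 for Klra5, -0.28 to 0.15 for Klrc2, -0.07 to 0.29 for Klrd1 and -0.01 to 0.12 for Klrk1. At Leiden resolution 2, Klra4 in NK cells was at -0.01, and Klri2 and Klrk1 in CD8 T cells at -0.12 and -0.008. In the Gzmc-high cluster alone Klra4, Klra8 and Klrk1 were at -0.06, -0.07 and -0.0002, and in the Gzma-high cluster alone Klrc1, Klrd1 and Klrk1 at -0.1, 0.04 and -0.03. With the receptors among the clustering genes, Klrd1, Klri2 and Klrk1 in CD8 T cells were at -0.05, -0.05 and -0.13. Depth limits the shares: at 3000 UMIs and without thinning, cells with any of 9 Ly49 genes were 89.4% and 91.0% of NK cells, 58.5% and 63.8% of the Ly6c2 Cd160 T cluster, and 9.8% and 19.3% of CD8 T cells.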

Other observations

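Klra4 was also found in cells classed as fibroblast-like or tumour, a pattern chosen after its values were seen. Its level there was 42.8 CPM in WT-1, 47.3 in WT-2, 76.0 in cKO-1 and 57.0 in cKO-2. In a finer clustering, 252 deep cells (median 45396 UMIs), of which 99.6% had a UMI of Rhox5, held 849 Klra4 UMIs, and 62.7% of them had at least 1. In the same cells Klra8 was found in 4.76%, Klrd1 in 23.8% and Ncr1, an NK cell marker, in 7.94%. In NK cells Klra4 and Klra8 had nearly equal totals, 19691 and 19677 UMIs, so the ratio of these genes differed between the classes. Of the 252 cells 81.0% had a UMI of Ptprc, though its level in them was 61.7 CPM, against 2971 CPM in NK cells.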
